A study of Mus musculus with 11 samples.

Results

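Tubulins are the building blocks of microtubules. The genes described here are the 4 alpha-tubulin genes Tuba1a, Tuba1b, Tuba4a and Tuba8 and the 6 beta-tubulin genes Tubb2a, Tubb2b, Tubb3, Tubb4a, Tubb4b and Tubb5 of the mouse. They were picked by gene symbol, 10 of the 55421 genes listed in each library, and this set was chosen with their knockout against control differences and their isotype proportions in these libraries already known. Values for these genes are therefore a description, with no test.

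The RNA came from mouse cerebella collected on postnatal day 56 (P56) with the RiboTag method, in which Cre recombinase switches on a ribosomal protein Rpl22 that carries an HA tag, so that an antibody can pull down tagged ribosomes with their RNA. The knockout animals (KO, 4 libraries) had the genotype Pcp2Cre;Tie2flox/flox;Rpl22HA/HA, and the control animals (WT, 7 libraries) had Pcp2Cre;Rpl22HA/HA. Both groups thus carried the same Cre and the tagged ribosomal protein, and WT here does not mean an unmodified mouse. The question was what Purkinje cells translate when they lack Tie2, the angiopoietin receptor encoded by Tek. The Pcp2 promoter drives Cre in Purkinje cells without any inducing treatment, so floxed alleles can be lost well before P56. The starting tissue was whole cerebellum, and the 10 µl input kept before the pull-down was not analysed here. Each library is named by its animal tag. The labels give 3 batches: batch 1 held KO F371, KO M374 and WT M379, batch 2 held KO M390 and WT M386, and batch 3 held KO M456 with WT F473, M476, M477, M479 and M480. Nothing but the tags says that libraries came from separate animals, so the errors given here measure the spread between libraries.

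Alpha- and beta-tubulin pair into a heterodimer, and heterodimers stack into the wall of the microtubule, the track along which dendrites and axons are built and supplied. The isotypes differ mostly in their acidic tails, where enzymes add or remove tyrosine and glutamate residues. Cells also sense soluble tubulin: the factor TTC5 recognises the first residues of nascent tubulin chains on the ribosome and starts decay of the messenger, so ribosome-bound tubulin RNA is where that control acts. Purkinje cells have an exceptionally large dendritic tree, and loss of Agtpbp1, which trims glutamate from tubulin tails, makes them degenerate in the pcd mouse.

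Depth differed between the groups. The libraries held 2.58 to 4.20 M reads in genes in KO and 4.09 to 5.14 M in WT, with means of 3.38 M ± 0.66 in KO and 4.57 M ± 0.394 in WT (SD, n = 4 and 7). Tek itself was too low to check the labels library by library, with 0 to 14 reads per KO library and 0 to 40 per WT library, and 21 and 93 reads in all. The defining Purkinje markers were abundant in every library, summing to 5121 to 6991 CPM (read counts divided by the scaled size of the library) in KO and 5184 to 5982 CPM in WT, with 3 of 10 higher in KO. Of the granule cell list 6 of 10 rose in KO, with summed levels of 472 to 1389 CPM in KO and 348 to 728 CPM in WT. Of the Bergmann glia and astrocyte list 6 of 10 rose and 1 fell, with 604 to 1285 CPM in KO and 543 to 761 CPM in WT. In the oligodendrocyte list 2 of 10 rose, with 315 to 952 CPM in KO and 283 to 710 CPM in WT. Of the other lists, 3 of 7 interneuron, 3 of 9 microglia, 1 of 8 vascular and 2 of 5 choroid plexus markers rose and none fell. Markers are counted here at an adjusted p below 0.05, where 10.9% of all tested genes were higher and 13.4% lower in KO. No marker was at 0 throughout a group, and the part of depth and of these other cells in the tubulin values was not tested. In a pull-down of this kind fewer tagged cells and less RNA per cell cannot be told apart.

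The start regions of 4 members are shown because these genes stand at opposite ends of the KO against WT differences: Tuba8 and Tubb4b had the lowest fold changes, and Tuba1b and Tuba1a the highest among the members with more than a few reads. Each is the 250 bases before the RefSeq gene start on GRCm38.p6, written 5′ to 3′ in the direction of transcription. They lie at chr6:121210484-121210733 on the plus strand for Tuba8, chr2:25224703-25224952 on the minus strand for Tubb4b, chr15:98934391-98934640 on the minus strand for Tuba1b and chr15:98953502-98953751 on the minus strand for Tuba1a. Capitals mark matches, on either strand, to CCAAT (the NF-Y box), GGGCGG (the GC box of Sp1), TATAAA (the TATA box) or GTAAACA (the forkhead core bound by FoxO factors, which act downstream of receptors such as Tie2).
Tuba8: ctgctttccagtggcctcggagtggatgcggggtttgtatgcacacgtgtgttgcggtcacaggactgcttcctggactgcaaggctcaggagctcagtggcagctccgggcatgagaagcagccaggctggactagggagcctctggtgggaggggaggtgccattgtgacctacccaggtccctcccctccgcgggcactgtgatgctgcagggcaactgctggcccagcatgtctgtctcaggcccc
Tubb4b: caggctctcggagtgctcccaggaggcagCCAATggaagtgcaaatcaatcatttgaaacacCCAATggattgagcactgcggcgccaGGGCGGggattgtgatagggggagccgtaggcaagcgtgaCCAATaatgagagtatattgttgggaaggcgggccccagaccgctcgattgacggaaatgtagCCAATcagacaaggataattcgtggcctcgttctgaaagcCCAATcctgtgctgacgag
Tuba1b: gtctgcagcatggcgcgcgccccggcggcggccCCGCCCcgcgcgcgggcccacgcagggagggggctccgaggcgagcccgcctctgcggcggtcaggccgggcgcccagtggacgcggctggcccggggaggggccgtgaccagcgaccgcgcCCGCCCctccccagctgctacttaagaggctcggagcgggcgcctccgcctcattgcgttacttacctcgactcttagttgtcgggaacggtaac
Tuba1a: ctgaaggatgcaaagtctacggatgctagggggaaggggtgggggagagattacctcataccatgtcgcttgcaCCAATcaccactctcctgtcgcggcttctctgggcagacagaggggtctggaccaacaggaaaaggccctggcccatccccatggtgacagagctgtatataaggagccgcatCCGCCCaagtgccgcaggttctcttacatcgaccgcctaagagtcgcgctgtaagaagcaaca

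Tubb4b held 5 CCAAT boxes and 1 GC box in its window. Windows with 5 or more CCAAT boxes numbered 70 of the 32851 mouse promoters in the same table, or 0.213%. Tuba8 held none of the 4 motifs, and neither did Tubb4a. Tuba1b had 2 GC boxes in a window of 75.6% G and C, against a median of 52.4% over all promoters, and Tuba1a had 1 CCAAT box and 1 GC box. Of the 9 members with a promoter entry, which leaves out Tubb2b, 4 held a CCAAT box (33.8% of all promoters did), 6 a GC box (32.7%), 1 a TATA box (12.4%) and 0 the forkhead core (3.17%). A match is a description of letters and not of binding.

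The genes sit at scattered places on GRCm38.p6. Tuba1a (chr15:98949847-98953501) and Tuba1b (chr15:98931429-98934390) are neighbours, and so are Tubb2a (chr13:34074278-34078008) and Tubb2b (chr13:34127008-34130354). Tuba4a lies at chr1:75214972-75221261, Tuba8 at chr6:121210734-121226098, Tubb3 at chr8:123411553-123422015, Tubb4b at chr2:25222158-25224702, Tubb4a at chr17:57080061-57087600 and Tubb5 at chr17:35833920-35838301. Tuba1a and Tuba1b are near-identical over their coding sequence, as are Tubb2a and Tubb2b, and alignments to several places stayed out of the gene counts. Such alignments made up 8.83% to 10.6% of all counted alignments in KO and 7.91% to 9.40% in WT, and how they would divide among these genes was not tested, so the counts of both pairs are uncertain.

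Summed over the members, the KO libraries held less tubulin RNA for their depth, while 7 of the 10 members had a fold change below 0. The 10 genes summed to 1143 ± 184 CPM in KO and 1570 ± 88.2 CPM in WT (SD, n = 4 and 7), and the ranges, 972 to 1363 CPM in KO and 1471 to 1691 CPM in WT, did not overlap. In batch 2 the sums were 1363 CPM in KO M390 and 1475 CPM in WT M386. The genes were picked with this contrast known, and nothing is read from the sums. The alpha genes summed to 401 ± 69.8 CPM in KO and 551 ± 30.7 CPM in WT, and the beta genes to 742 ± 119 CPM in KO and 1019 ± 59.6 CPM in WT. The ratio of beta to alpha reads was 1.86 ± 0.163 in KO and 1.85 ± 0.0471 in WT, a difference smaller than the spread within either group.

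Of the 10 members, all 10 passed the filter on low counts, 5 were past the threshold on the lower side (an adjusted p below 0.05) and 0 on the higher side. The 5 were Tuba8, Tubb2a, Tubb3, Tubb4b and Tubb5. Over all 13375 tested genes 24.4% passed, 10.9% higher and 13.4% lower in KO. At an unadjusted p below 0.05, 6 members were lower and 1 higher, and DESeq2 and limma-voom also put 0 members on the higher side. The median log2 fold change was -0.34 over the members and -0.02 over all tested genes, and 7 members were below 0. The groups did not overlap in CPM for 4 members, all lower in KO, where 13.0% of all tested genes did not overlap. These counts come from the contrast by which the genes were picked, and nothing is read from them. They also hang on single libraries: without KO M456 or without WT M379 0 members passed, and 335 and 522 of all genes did. Fold changes below are log2 values, KO over WT, with batch in the model.

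**Figure D1:**
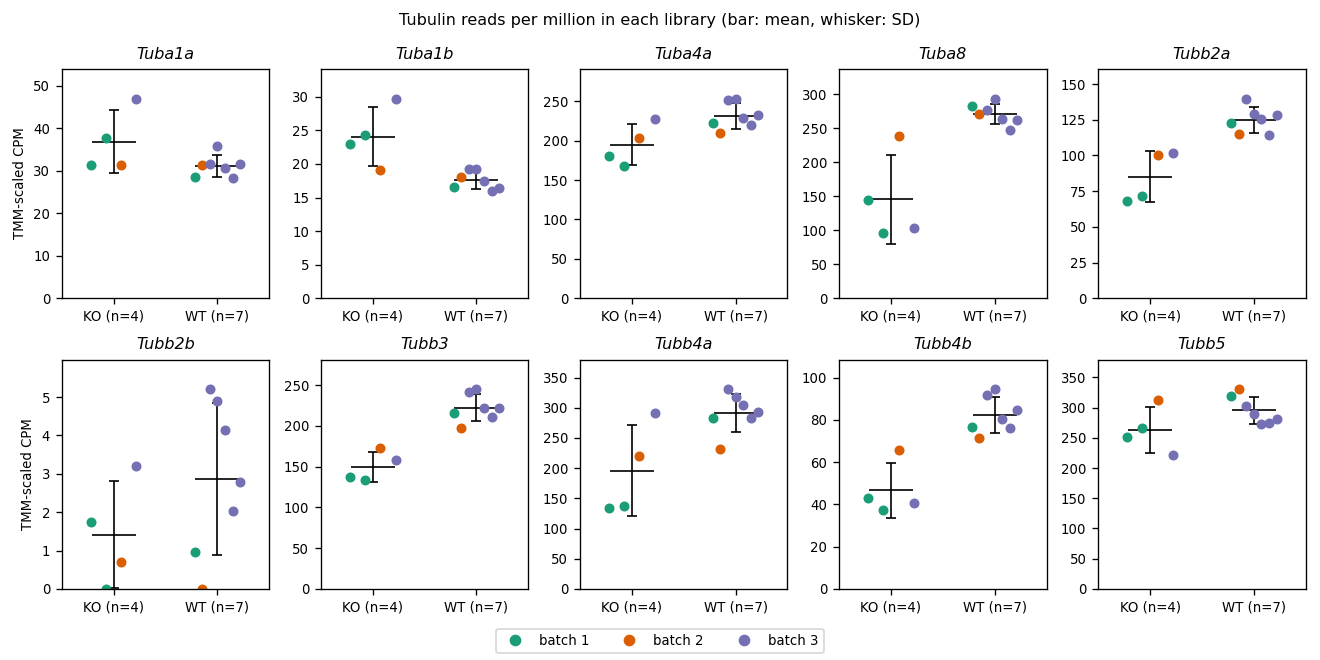
TMM-scaled CPM of the 10 tubulin genes in each library, KO left of WT, with points coloured by batch, bars at the mean and whiskers of 1 SD. Tuba8, Tubb2a, Tubb3 and Tubb4b have all 4 KO libraries below all 7 WT libraries, and the batch 2 KO library is the highest KO point for Tuba8 (239 CPM).

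Among the alpha genes Tuba8, a divergent isotype found in muscle, testis and brain, had the steepest difference. It had 144, 95.3, 239 and 104 CPM in KO F371, M374, M390 and M456, against a lowest value of 247, a median of 270.5 and a highest of 294 CPM in WT. All KO libraries were below all WT libraries, with KO M390 just under the WT range and the other KO libraries far under it. The means were 146 ± 65.7 CPM in KO and 271 ± 15.2 CPM in WT, and the log2 fold change was -1.01 ± 0.18 (SE). Tuba4a, an alpha-tubulin whose gene encodes no terminal tyrosine, had 181, 168, 203 and 228 CPM in the same 4 KO libraries, against 209, 228 and 253 CPM as lowest, median and highest in WT. KO M456 was at the WT median and the groups overlapped. Its log2 fold change was -0.15 ± 0.10, -0.09 without KO M374 and -0.03 without WT M379.

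Tuba1a and Tuba1b had positive fold changes. Tuba1a, the alpha-tubulin of growing neurons, had 31.3, 37.7, 31.4 and 47.0 CPM in KO F371, M374, M390 and M456, against 28.2, 31.4 and 35.8 CPM as lowest, median and highest in WT. KO M374 and KO M456 were above the WT range and the other KO libraries were inside it. Its means were 36.9 ± 7.37 CPM in KO and 31.1 ± 2.50 CPM in WT, with a log2 fold change of 0.33 ± 0.19, or 0.15 without KO M456. Tuba1b, expressed in most tissues, had 22.9, 24.3, 19.1 and 29.7 CPM in KO, against 15.9, 17.4 and 19.3 CPM as lowest, median and highest in WT. Only KO M390 was inside the WT range. Its means were 24.0 ± 4.38 CPM in KO and 17.6 ± 1.34 CPM in WT, with a log2 fold change of 0.51 ± 0.23, or 0.32 without KO M456.

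Among the beta genes Tubb4b, a broadly expressed isotype that is also a component of cilia, had the lowest fold change. It had 43.2, 37.4, 65.9 and 40.6 CPM in KO F371, M374, M390 and M456, against 71.4, 80.6 and 94.4 CPM as lowest, median and highest in WT. The groups did not overlap, and KO M390 was again nearest to WT. Its means were 46.8 ± 13.0 CPM in KO and 82.2 ± 8.49 CPM in WT, with a log2 fold change of -0.77 ± 0.18. Tubb3, the neuron-specific beta-tubulin, had 137, 133, 172.5 and 158 CPM in KO, against 197, 221 and 245 CPM as lowest, median and highest in WT. No KO library reached the WT range, and the log2 fold change was -0.50 ± 0.11. Tubb2a, a major neuronal beta-tubulin, had 67.9, 71.3, 100.2 and 101.6 CPM in KO, against 114, 125 and 140 CPM as lowest, median and highest in WT. Here KO M390 and KO M456 lay together above both batch 1 KO libraries, and the log2 fold change was -0.46 ± 0.13, or -0.26 without WT M379.

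Tubb5, the class found in most cell types, had 250.7, 267, 312 and 221 CPM in KO F371, M374, M390 and M456, against 273, 289 and 330.1 CPM as lowest, median and highest in WT. KO M390 fell inside the WT range, the other KO libraries fell below it, and the log2 fold change was -0.27 ± 0.09. Tubb4a, a brain beta-tubulin that is especially abundant in oligodendrocytes, had 133, 138, 219 and 291.5 CPM in KO, against 232, 292 and 330.3 CPM as lowest, median and highest in WT. KO M456 was at the WT median while both batch 1 KO libraries were far below WT. Its log2 fold change was -0.40 ± 0.15, -0.05 without WT M379 and -0.65 without KO M456. The summed oligodendrocyte markers given above overlapped between the groups and reached higher in KO, and their part in the Tubb4a values was not tested. Tubb2b, known from cortical development, was near the limit of counting, with 6, 0, 3 and 8 reads in KO and 0 to 23 reads in WT. Its log2 fold change of 0.23 ± 0.83 is positive although the mean was 1.42 ± 1.39 CPM in KO and 2.86 ± 1.98 CPM in WT, since the fit compares within batches, and it ran over -0.18 to 0.78 with single libraries left out.

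The other alpha- and beta-tubulin genes were scarcely seen. Tuba1c, Tuba3a, Tuba3b, Tubal3 and Tubb1 had 0 to 3 reads in each library and were not tested. Tubb6, a beta-tubulin of non-neuronal cells, had 30 reads in KO and 163 in WT, with a log2 fold change of -1.40 ± 0.57 (adjusted p = 0.084).

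The members differed in which batch carried the difference. Within batches the log2 ratio of mean CPM, KO over WT, was -1.23, -0.18 and -1.37 for Tuba8 in batches 1, 2 and 3, and -0.92, -0.12 and -1.07 for Tubb4b. These genes, with Tubb3 at -0.67, -0.19 and -0.53, were lower in batches 1 and 3 and nearer 0 in batch 2. Tubb4a followed another course, with -1.06, -0.08 and -0.07, so that its lower level rests on batch 1. Tubb2a gave -0.81, -0.20 and -0.32, Tuba4a -0.35, -0.04 and -0.06, and Tubb5 -0.30, -0.08 and -0.36. Tuba1b was higher in KO at 0.50, 0.08 and 0.73, and Tuba1a at 0.26 and 0.57 in batches 1 and 3, with 31.4 CPM in both libraries of batch 2. Batch 2 holds 1 library of each group, batch 1 a single WT library and batch 3 a single KO library, M456. None of these ratios was therefore tested alone.

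**Figure D2:**
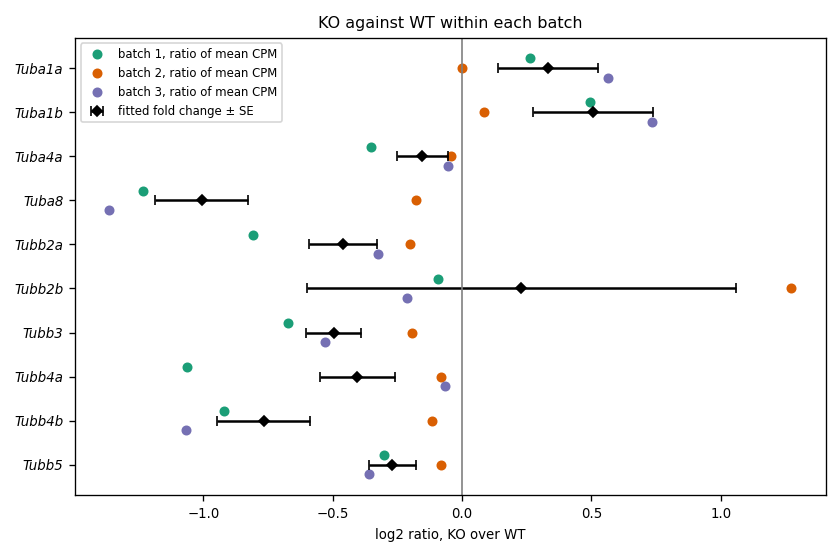
Log2 ratio of mean CPM, KO over WT, for each tubulin gene within batches 1, 2 and 3 (coloured points), with the fitted log2 fold change and its SE (black diamonds). Tuba8, Tubb4b and Tubb3 are low in batches 1 and 3, while Tubb4a is low in batch 1 (-1.06) and near 0 in the others.

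Within each class the make-up of the reads shifted. Shares of reads are not corrected for gene length, so they compare libraries and not genes. Tuba8 took 38.0%, 29.3%, 48.5% and 25.4% of the alpha reads in KO F371, M374, M390 and M456, against 47.9% to 51.3% in WT, with means of 35.3% ± 10.2 in KO and 49.2% ± 1.40 in WT (SD, n = 4 and 7). The narrow WT range shows how little this share varied among the controls. Within batches the share was 16.1 percentage points lower in KO, with differences of -17.6, -2.60 and -23.0 points in batches 1, 2 and 3.

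The other alpha genes took larger shares in KO. Tuba1a held 8.26%, 11.6%, 6.38% and 11.5% of the alpha reads in the 4 KO libraries, against 5.20% to 5.95% in WT, and Tuba1b held 6.04%, 7.49%, 3.89% and 7.27% in KO, against 3.02% to 3.41% in WT. Neither share overlapped between the groups. Their KO minus WT differences were 4.72, 0.440 and 5.81 points for Tuba1a and 3.75, 0.479 and 4.09 points for Tuba1b in batches 1, 2 and 3. Tuba4a averaged 49.1% ± 6.19 in KO and 41.9% ± 1.41 in WT, with 41.2% in KO M390. Since shares of a class add up, a lower share of Tuba8 raises the others, whatever their own levels.

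The beta shares shifted less and less evenly. Tubb4b took 6.82%, 5.79%, 7.57% and 4.97% of the beta reads in KO F371, M374, M390 and M456, against 7.54% to 8.75% in WT, with only KO M390 inside the WT range. Tubb5 took 39.6%, 41.3% and 35.8% in KO F371, M374 and M390 but 27.1% in KO M456, against 26.8% to 34.9% in WT. Tubb4a ran opposite to it, with 21.0%, 21.3%, 25.2% and 35.7% in KO, against 24.5% to 30.1% in WT. The batch 1 KO libraries were thus high in Tubb5 and low in Tubb4a, and KO M456 was the reverse for Tubb4a. Tubb3 averaged 20.3% ± 0.992 in KO and 21.8% ± 0.586 in WT, and Tubb2a 11.4% ± 0.762 in KO and 12.2% ± 0.314 in WT.

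**Figure D3:**
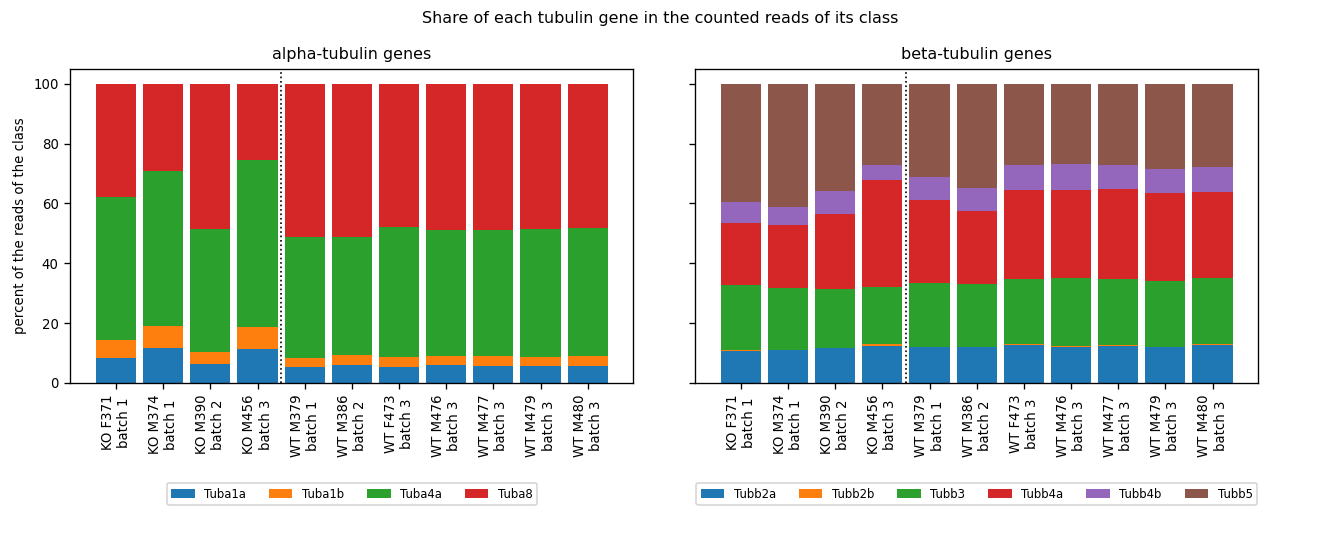
Percent of the alpha reads (left) and beta reads (right) taken by each gene in each library, KO left of the dotted line and WT right of it. The 7 WT columns are nearly alike for the alpha genes (Tuba8 at 47.9% to 51.3%), while KO F371, M374 and M456 have a smaller Tuba8 part (25.4% to 38.0%).

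The same raw reads that give the CPM and the shares were also set against depth, as a description. The largest library total was 1.99 times the smallest, yet Tuba1b had 79, 82, 81 and 74 reads in the KO libraries, against 69 to 85 reads in WT. Its highest count was 1.23 times its lowest, and the variance of its reads over the 11 libraries was 0.263 of their mean. Of 1829 genes with a mean within a factor of 1.5 of it, 0.109% had a lower ratio of variance to mean. The median of that ratio among them was 13.0. The slope of its log2 reads on the log2 total was 0.09, against a median of 1.06 among those genes, and 20.8% of them had a lower slope.

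Tuba1a was similar, with 108 to 127 reads in the batch 1 KO libraries, 133 in KO M390 and 117 in KO M456, against 119 to 159 in WT, and a slope of 0.40, which 25.4% of genes of like mean were below. Tuba8 differed from both between the groups, with 497, 321, 1011 and 259 reads in KO, against 1170 to 1320 in WT. Its slope was 2.75 over the 11 libraries, which includes the KO against WT difference. Over the 7 WT libraries alone the slopes were 0.23 for Tuba8, 0.27 for Tuba1b and 0.43 for Tuba1a. The medians among genes of like mean over those WT libraries were 0.92, 1.22 and 1.26, so within WT these members were alike. With the log2 library total in the model the log2 fold change was 0.14 for Tuba1b, 0.00 for Tuba1a, -0.67 for Tuba8, -0.52 for Tubb4b and -0.65 for Tubb4a. Genotype and depth moved together in these libraries and cannot be told apart.

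**Figure D4:**
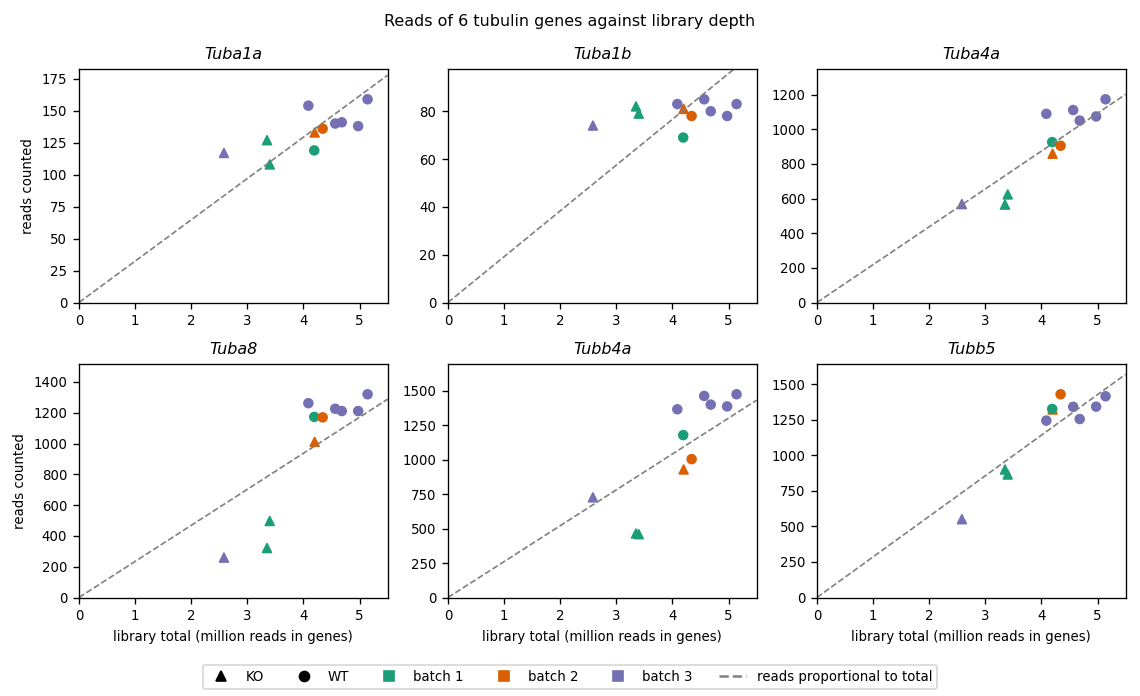
Reads counted for 6 tubulin genes against the library total (M reads in genes), with KO as triangles, WT as circles, colour for batch, and a dashed line for reads in proportion to the total. Tuba1b stays between 69 and 85 reads at every depth, while Tuba8 lies well under the line in KO F371, M374 and M456.

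The likeness of other genes to the 3 members with the highest WT level was measured as Pearson's r of batch-centred log2 CPM over the 11 libraries, among 9009 genes of at least 20 CPM, and it includes the KO against WT difference and the shared depth. Closest to Tubb5 were Eif3m (0.980), Cnpy3 (0.978) and Dmap1 (0.973). Closest to Tubb4a were Tpi1 (0.990), Aldoa (0.984) and Zwint (0.978), of which Tpi1 and Aldoa encode enzymes of glycolysis. Closest to Tuba8 were Adprhl1 (0.997), Oscp1 (0.996) and Gnal (0.995). These are descriptions over libraries that share their batches, with no test.

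The genes that fold, modify, bind and organise tubulin are not named in the rule for the members, and they were tested in the fit across all genes. The lists were drawn up with earlier results of these libraries known, so their share of calls is a description and not independent evidence. Of 106 such genes in 8 lists, 93 were tested and 37 passed (39.8%), 12 higher (12.9%) and 25 lower (26.9%) in KO, where 10.9% of all genes were higher and 13.4% lower. Their median log2 fold change was -0.03. These calls lean on single libraries: without KO M456 35 of the 37 were lost, without WT M379 28 were lost, and with the library total in the model 0 passed (8 were higher and 9 lower at an unadjusted p below 0.05). Adjusted p values are from edgeR over all tested genes.

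**Figure D5:**
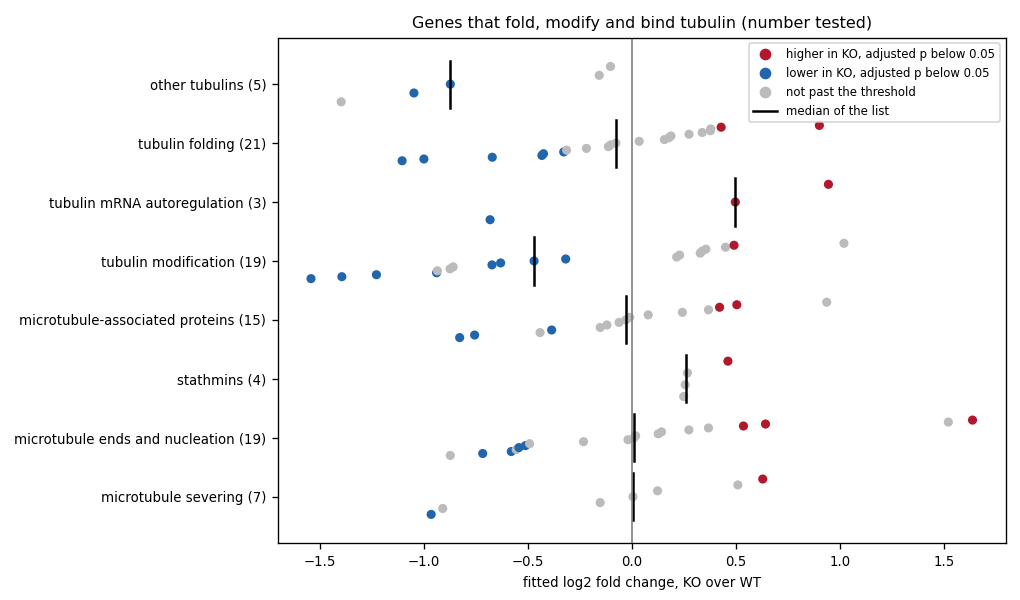
Fitted log2 fold change, KO over WT, of the tested genes in 8 lists of tubulin-related genes, red where higher and blue where lower in KO at an adjusted p below 0.05, grey otherwise, with a black line at each list's median. The lists of other tubulins (-0.87) and modifying enzymes (-0.47) have the lowest medians.

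Gamma-tubulins form the ring that nucleates microtubules. Of the 5 tested other tubulins 2 fell and none rose, with a list median of -0.87. Tubg1 averaged 61.5 ± 17.3 CPM in KO and 124 ± 15.9 CPM in WT, a log2 fold change of -1.05 ± 0.19 (adjusted p = 0.00284). Tubg2, its paralog, averaged 47.0 ± 13.5 CPM in KO and 83.9 ± 11.6 CPM in WT, or -0.87 ± 0.20 (adjusted p = 0.00797). In Tubg1 the 4 KO libraries, at 46.2 to 86.2 CPM, lay below the 7 WT libraries at 103 to 143 CPM. In Tubg2 they lay just below, at 36.9 to 66.2 CPM in KO and 67.8 to 99.3 CPM in WT. Batch 2 log2 ratios were -0.33 for Tubg1 and -0.14 for Tubg2. Without KO M456 the log2 fold changes were -0.82 and -0.68 (adjusted p = 0.0542 and 0.117).

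Newly made tubulin is folded by the TRiC chaperonin and then paired by the cofactors TBCA to TBCE. Of 21 tested genes 2 rose and 6 fell, with a median of -0.08. Tcp1, a TRiC subunit, averaged 122 ± 52.7 CPM in KO and 182 ± 11.3 CPM in WT (-0.67 ± 0.15, adjusted p = 0.00624). The cofactors Tbcd and Tbce fell by 1.10 ± 0.26 and 1.00 ± 0.25 on the log2 scale (adjusted p = 0.00906 and 0.0120). Without KO M456 the log2 fold change of Tbcd was -0.59 (adjusted p = 0.113). Tbcel, a relative of Tbce that destabilises tubulin, was opposite, at 157 ± 37.7 CPM in KO and 89.3 ± 15.2 CPM in WT (0.90 ± 0.17, adjusted p = 0.00348). Batch 2 log2 ratios were -0.002 for Tcp1, -0.53 for Tbcd, -0.08 for Tbce and 0.46 for Tbcel. The groups overlapped in CPM for Tcp1 and Tbce.

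For the tubulin messenger decay factors all 3 tested genes passed. Ttc5, which binds the nascent chain, averaged 98.1 ± 29.1 CPM in KO and 129.6 ± 33.5 CPM in WT (-0.68 ± 0.18, adjusted p = 0.0150). Scaper, the adaptor that TTC5 recruits, averaged 158 ± 42.2 CPM in KO and 129.8 ± 26.1 CPM in WT (0.50 ± 0.13, adjusted p = 0.0134). Cnot11, the CCR4-NOT subunit bound by SCAPER, averaged 47.6 ± 4.56 CPM in KO and 26.2 ± 6.50 CPM in WT (0.95 ± 0.24, adjusted p = 0.0124). In CPM, Ttc5 was thus lower in KO and Scaper and Cnot11 higher, while the groups overlapped for Ttc5 and Scaper. Raw reads of all 3 overlapped. Per library they were 165 to 573 in KO and 315 to 755 in WT for Ttc5. They were 471 to 542 and 413 to 741 for Scaper, and 122 to 189 and 80 to 158 for Cnot11. The part of the lower KO depth in these CPM values was not tested. Batch 2 log2 ratios were -0.19 for Ttc5, 0.16 for Scaper and 0.61 for Cnot11.

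Of 19 tested modifying enzymes 8 fell and 1 rose, with a median of -0.47. Sirt2, a tubulin deacetylase that oligodendrocytes also express strongly, averaged 49.3 ± 31.3 CPM in KO and 142 ± 16.9 CPM in WT (-1.54 ± 0.24, adjusted p = 0.00206). Ttll1, which adds glutamate chains to tubulin tails, averaged 50.5 ± 25.9 CPM in KO and 109 ± 10.5 CPM in WT (-1.23 ± 0.21, adjusted p = 0.00261). Agbl3, a carboxypeptidase that removes glutamate, fell by 1.39 ± 0.31 on the log2 scale (adjusted p = 0.00665). Agtpbp1, the pcd gene, was the 1 enzyme that rose, with 337, 353, 276 and 389.5 CPM in KO F371, M374, M390 and M456, against 199 to 257 CPM in WT (0.49 ± 0.11, adjusted p = 0.00727). Without KO M456 its log2 fold change was 0.32 (adjusted p = 0.184). Its raw reads overlapped between the groups, at 970 to 1188 per KO library and 855 to 1217 per WT library. Batch 2 log2 ratios were -0.32 for Sirt2, -0.25 for Ttll1, -0.02 for Agbl3 and 0.10 for Agtpbp1. Of the enzymes named here that trim glutamate, 1 thus rose and 1 fell.

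Among 15 tested microtubule-associated proteins 2 rose and 3 fell. Map9 averaged 219 ± 34.7 CPM in KO and 167 ± 18.0 CPM in WT (0.51 ± 0.10, adjusted p = 0.00393), and Map7d2, a kinesin cofactor, 605 ± 99.5 CPM in KO and 455 ± 32.7 CPM in WT (0.42 ± 0.10, adjusted p = 0.00974). Raw reads per library were 641 to 774 in KO and 609 to 906 in WT for Map9. For Map7d2 they were 1787 to 2088 in KO and 1947 to 2221 in WT. On the log2 scale Map6, which keeps microtubules stable in the cold, fell by 0.83 ± 0.16 (adjusted p = 0.00383) and Tppp3 by 0.76 ± 0.19 (adjusted p = 0.0116). Of 4 stathmins, which bind free tubulin, 1 was called higher: Stmn3 averaged 271 ± 58.3 CPM in KO and 201 ± 12.9 CPM in WT (0.46 ± 0.12, adjusted p = 0.0120). Its raw reads were alike, at 869 to 902 per KO library and 859 to 930 per WT library. The groups overlapped in CPM for Map9, Map7d2 and Stmn3, and the part of the lower KO depth in their CPM was not tested. Batch 2 log2 ratios were 0.30 for Map9, 0.03 for Map7d2, -0.14 for Map6, -0.24 for Tppp3 and 0.06 for Stmn3. Without KO M456 the log2 fold changes were 0.23 for Map7d2 and 0.19 for Stmn3 (adjusted p = 0.244 and 0.353).

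Of 19 tested genes for microtubule ends and nucleation 3 rose and 4 fell. Camsap1, which caps minus ends, averaged 188 ± 21.0 CPM in KO and 121 ± 14.8 CPM in WT (0.64 ± 0.13, adjusted p = 0.00495). Cdk5rap2, a gamma-tubulin recruiting protein, averaged 19.8 ± 13.9 CPM in KO and 8.02 ± 2.47 CPM in WT (1.64 ± 0.35, adjusted p = 0.00548). Its groups overlapped, at 6.85 CPM in KO M390 to 38.5 CPM in KO M456, against 4.34 to 11.1 CPM in WT. The plus-end proteins Mapre3 and Clasp1 fell by 0.54 ± 0.11 and 0.58 ± 0.12 on the log2 scale (adjusted p = 0.00393 and 0.00570). Of 7 tested severing genes Spast (spastin), which cuts microtubules, rose, at 96.2 ± 13.9 CPM in KO and 54.3 ± 13.2 CPM in WT (0.63 ± 0.15, adjusted p = 0.00956). The groups overlapped in CPM for Spast too. Batch 2 log2 ratios were 0.17 for Camsap1, 0.28 for Cdk5rap2, -0.22 for Mapre3, -0.51 for Clasp1 and 0.26 for Spast.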

How the data were processed

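Ribosome-bound RNA of cerebellum was sequenced in 11 libraries, 1 per animal tag. The deposited files hold whole-number read counts per gene, not normalized, made by the authors with STAR and HTSeq on GRCm38 per the submitters' processing notes. The files are marked as filtered without saying what was removed, so the counts and library totals may not cover every read. Tool versions, the strand setting and other counting options were not given in the sources used here, so reads of overlapping antisense genes cannot be told apart. No molecular identifiers were named, so a read is not one independent molecule. Summary lines naming no gene (18.3% to 26.1% of counted alignments) stayed out of totals and tests.

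Counts were filtered with filterByExpr and fitted in edgeR 4.0.16 (R 4.3.3, limma 3.58.1): TMM scaling, quasi-likelihood, batch and genotype, 7 residual degrees of freedom, two-sided p-values adjusted by Benjamini-Hochberg at 0.05. The procedure was checked on simulated data. SE is the absolute fold change over the root of F. Correlations used log2 CPM with a prior count of 2, and batch ratios a pseudocount of 0.5 CPM. Group means are not adjusted for batch. The closest 2 libraries of a group had a chi-square over degrees of freedom of 2.40, above sampling noise, and none was treated as a copy. Exonic lengths were not available here, so read shares were not divided by length.

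The members and lists were chosen with earlier results of these data known. Named genes were the 10 members, Ttc5, Agtpbp1, up to 4 called genes per list with the smallest adjusted p, and for the 3 highest members the 3 most similar genes; 1 gene under this rule is not reported here. Promoters and positions are from RefSeq on GRCm38.p6. Alternatives were no batch term, other scalings and filters, DESeq2 1.42.0, limma-voom, each library left out, animals tagged M only, batch 2 left out, and the library total as covariate.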

Additional observations from a re-analysis of the deposited data

Results flagged for a closer look

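Of 40 sets of values (the CPM and the read share of each of the 10 genes in KO and in WT) examined for a library standing apart from its group, 1 was picked out, where chance picks about 1 in 20. Tubb4a took 24.5% of the beta reads in WT M386, below the other WT libraries. M386 is the WT library of batch 2, the batch in which Tubb4a differed least between KO and WT as a share.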

How the results depend on the processing

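Every member kept the sign of its log2 fold change under all 21 alternatives except Tuba1a (-0.0043 to 0.47, 1 negative) and Tubb2b (-1.06 to 0.78, 6 negative). Tuba8 ranged over -1.28 to -0.67 and Tubb4a over -0.65 to -0.05. The count of genes called was 3257, 335 to 4649 with each library left out (335 without KO M456, 522 without WT M379) and 0 with the library total as covariate (1841 at an unadjusted p below 0.05). Members called lower numbered 5, 0 to 6 with each library left out (0 without KO M456 or WT M379, where 5 and 4 were lower at an unadjusted p below 0.05), 3 among animals tagged M and 0 with the library total (4 unadjusted). Tubulin-related genes called higher numbered 12, 19 by DESeq2, 22 without batch 2, 0 to 23 with each library left out (0 without KO M456, 13 unadjusted) and 0 with the library total. Those called lower numbered 25, 2 to 28 with each library left out and 0 with the library total. The KO minus WT share difference was -20.6 to -11.2 points for Tuba8 and 0.11 to 5.60 points for Tubb5, whose lowest value came without WT M379, with each library left out. The cause was not tested. Length-corrected shares were not run. No paired analysis was possible because animal tags are not shared between the groups. Depth limits Tubb2b most, with 17 reads in KO and 91 in WT.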
